A study of Mus musculus with 5 samples.

Results

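The genes described here build, start and run the DNA replication fork and supply it with deoxynucleotides, together with a few genes that open S phase or restore chromatin behind the fork. They were chosen by name, as the probe sets that the platform annotation gives exactly 1 symbol out of 49 listed genes. Of these, 48 genes were measured, on 105 probe sets, out of 18193 genes and 34945 probe sets with 1 symbol in the whole table. Chaf1a, a subunit of the chromatin assembly factor, is not named in the annotation used and has no value here. The brain dendritic cell (DC) group held 2 Affymetrix arrays of lineage-negative CD45hi CD11c+ cells sorted from brains of C57BL/6 females aged 6 to 8 weeks that had been given B16-Flt3L tumour cells under the skin 12 days before the organs were taken. B16 cells come from a mouse melanoma, and this derivative supplies Flt3 ligand, a growth factor that expands DCs. Bone marrow monocytes were represented by 3 arrays of side-scatter-low CD11bhi CD115+ cells from C57BL/6 females of the same age, for which no treatment is labelled. Cell type, tissue and tumour inoculation therefore differ together between the groups and cannot be told apart. The series was made to compare endocytic and cytokine receptors, Toll-like receptors, transcription factors and antigen presentation genes, and replication genes are not named among its questions.

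Each value is a log2 value set against its own probe set's baseline, so values compare arrays with each other and give no level of one gene against another. Array medians lay between -0.05 and 0.00. All 8 conventional DC markers were higher in brain DCs and all 7 measured monocyte markers were lower, as were 7 of 10 granulocyte-monocyte progenitor markers, while 7 of 7 microglia markers were higher in brain DCs, as were 3 of 7 natural killer cell markers (Klrd1, Gzma and Gzmb, by 6.29, 2.75 and 1.56 on the log2 scale) and 2 of 8 markers of choroid plexus, glia and endothelium (Ttr and Cldn5, by 7.22 and 2.56), all 5 named after their values were seen. Of 7 melanoma cell markers 0 were higher and 1 was lower. Among all genes, 16.9% were called lower and 16.9% higher, and a marker count near these shares is not a result about that list. Probe sets for poly-A control transcripts, which are added to RNA during labelling, were higher in brain DCs in 24 of 24 cases, with a median difference of 2.59 on the log2 scale, and the part of labelling in the results below was not tested. Whether the samples are from separate animals is not labelled, so the p-values reflect the spread among these 5 samples alone, and that spread may be technical. In sorted bulk samples, fewer replicating cells and less RNA per replicating cell cannot be told apart.

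Before a cell copies its DNA, the origin recognition complex, Cdc6 and Cdt1 load the ring-shaped MCM helicase onto origins during G1 phase, and geminin blocks further loading once S phase has begun. Kinases of S phase then recruit Cdc45 and the GINS complex to activate the helicase, primase and the replicative polymerases synthesise both strands, and a sliding clamp holds the polymerases on the template. Many of these genes, and those for deoxynucleotide synthesis, are transcribed by E2F factors at the start of S phase. Bone marrow monocytes arise from dividing progenitors, whereas DCs of tissues arise from circulating precursors and divide to a limited extent.

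Replication genes were lower in brain DCs than in bone marrow monocytes in 25 of the 48 measured genes and higher in 1, Pcna, by limma with Benjamini-Hochberg adjustment over all 18193 genes. The adjusted p of the other 22 did not pass 0.05. Over all genes, 16.9% were called lower and 16.9% higher, so that 33.8% were called in either direction. The median difference, brain DC minus monocyte, was -0.67 on the log2 scale over the 48 genes, against 0.09 over all genes, and 43 of the 48 lay below that median of all genes. Of the genes called lower, 16 were at least 2-fold lower, a count that was not made over all genes. In 31 of the 48, both brain DC arrays lay below all 3 monocyte arrays, against 25% of all genes, and in 1 they lay above, against 35.1% of all genes. The largest differences belonged to Ccne2, Rrm2, Cdc6, Cdc7 and Mcm4. The design of 2 against 3 arrays allows an exact permutation test of a single gene no p below 0.1, so calls rest on the variance model fitted across all genes.

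**Figure D1:**
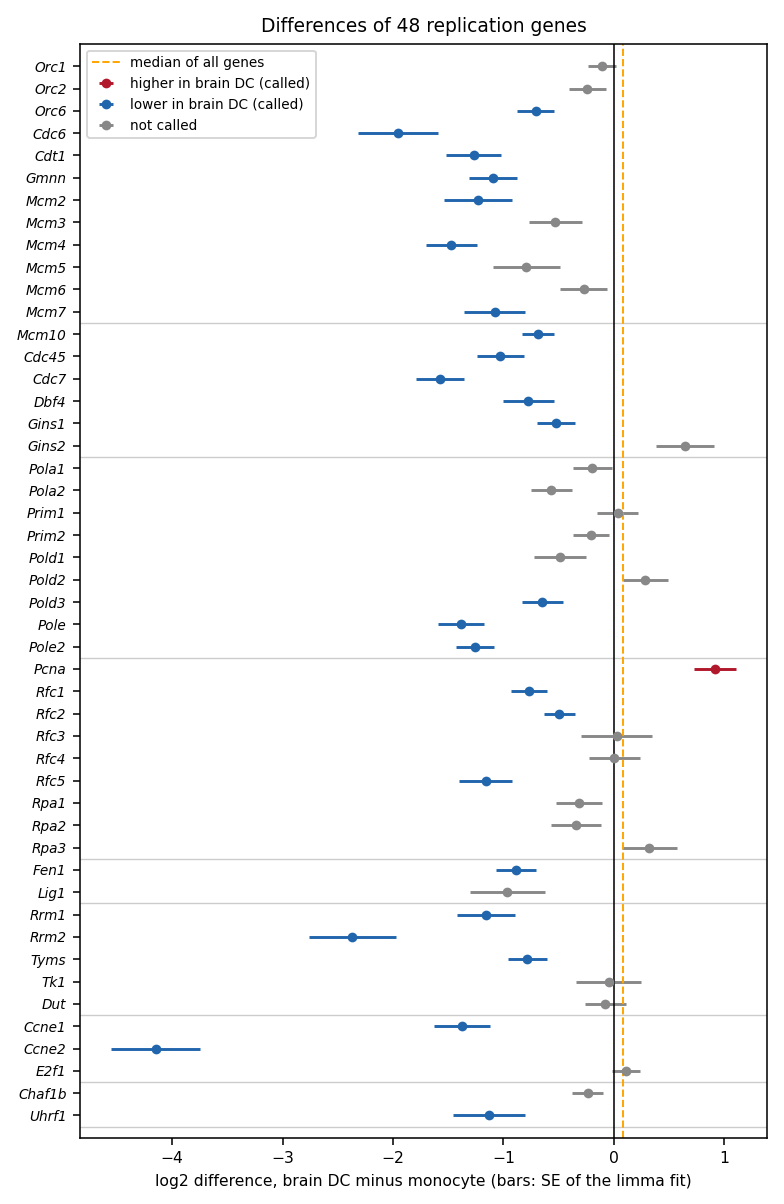
Each point is the log2 difference, brain DC minus bone marrow monocyte, of 1 replication gene with the SE of the limma fit, and grey lines separate the roles from origin licensing at the top to chromatin at the bottom. The 25 genes called lower in brain DCs are blue, Pcna, the 1 called higher, is red, the 22 not called are grey, and the dashed line is the median of all genes at 0.09.

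**Figure D2:**
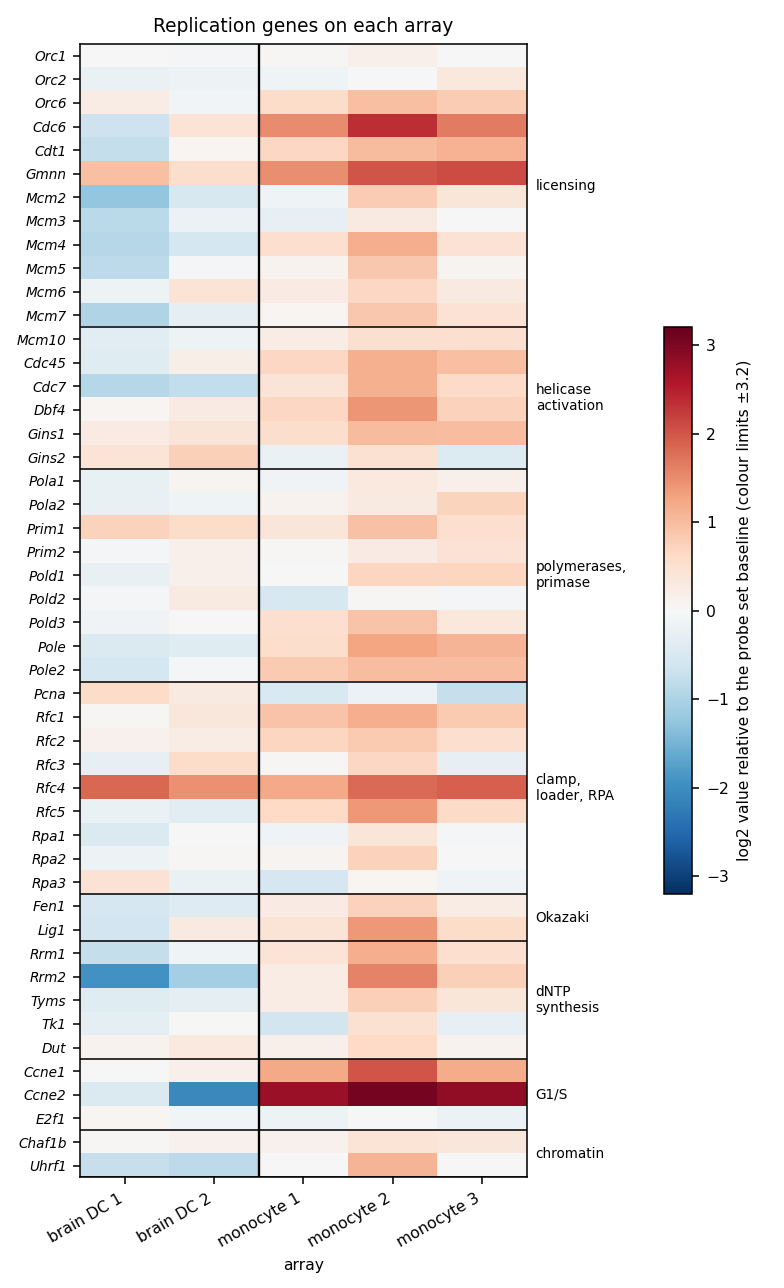
Colour gives the log2 value relative to the probe set baseline of each of the 48 replication genes (rows, grouped by role) on the 2 brain DC arrays at the left and the 3 monocyte arrays at the right. Colours compare arrays within a row and not rows with each other, and monocyte array 2 is the highest of the 3 monocyte arrays in 39 rows.

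The promoters of 3 called genes are shown because they hold a word of the E2F site, the element through which much of this gene set is known to be transcribed. Each run gives the 250 bases before the gene's start, 5′ to 3′ on the strand of the gene, from RefSeq on build GRCm38.p6, with the E2F word in capitals. Cdc6 lies on the plus strand at chr11:98907901-98908150, Uhrf1 on the plus strand at chr17:56304063-56304312, and Mcm7 on the minus strand at chr5:138171884-138172133.
Cdc6: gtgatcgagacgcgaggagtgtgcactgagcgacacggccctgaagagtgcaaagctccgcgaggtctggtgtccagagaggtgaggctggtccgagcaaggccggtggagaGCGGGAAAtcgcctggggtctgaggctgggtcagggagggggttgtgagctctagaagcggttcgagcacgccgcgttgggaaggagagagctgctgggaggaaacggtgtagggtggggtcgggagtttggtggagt
Uhrf1: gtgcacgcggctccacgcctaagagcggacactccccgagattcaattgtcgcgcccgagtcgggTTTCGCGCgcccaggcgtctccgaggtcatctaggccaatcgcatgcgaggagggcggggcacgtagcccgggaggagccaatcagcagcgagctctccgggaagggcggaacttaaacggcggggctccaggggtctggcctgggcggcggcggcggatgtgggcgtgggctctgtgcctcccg
Mcm7: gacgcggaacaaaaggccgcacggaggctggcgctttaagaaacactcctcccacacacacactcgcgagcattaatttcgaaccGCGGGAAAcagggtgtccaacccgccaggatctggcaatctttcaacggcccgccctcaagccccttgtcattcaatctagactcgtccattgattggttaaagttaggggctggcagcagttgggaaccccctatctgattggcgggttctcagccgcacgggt
The first base of the word lies 138 bases before the start in Cdc6, 185 in Uhrf1 and 165 in Mcm7. The search used TTTCCCGC, TTTCGCGC, TTTGCCGC and TTTGGCGC on both strands, and 40 of the 48 measured genes had a promoter entry, without Gins2, Gins1, Prim2, Gmnn, Mcm4, Ccne2, Pole and Rfc2. Within 250 bases before to 50 bases after the start, 14 of the 40 (35%) held a word, against 550 of 14452 genes (3.81%). In the 250 bases before the start the shares were 20% of the 40 genes and 3.15% of all genes. The CCAAT box, searched as CCAAT, was found in 55% of the 40 and 42% of all genes, and the cell cycle homology region, searched as TTTGAA and TTCGAA, in 20% of the 40 and 17.5% of all genes. Genes with and without the word had similar median differences between the groups. The 14 genes with an E2F word had a median difference of -0.72 with 6 called lower, and the 26 without one had -0.63 with 13 called lower.

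Origin licensing genes were the largest group, with 7 of 12 lower in brain DCs, 0 higher and a median difference of -0.94 on the log2 scale. Cdc6, the ATPase that brings the MCM helicase to the origin, had log2 values of -0.67 and 0.45 in brain DCs, against 1.51, 2.35 and 1.66 in monocytes. The groups did not overlap, and the difference was -1.95 ± 0.36 (SE), which is 3.87-fold lower in brain DCs (limma adjusted p = 0.00503). Cdt1, its partner in helicase loading, had -0.75 and 0.05 in brain DCs, against 0.65, 1.00 and 1.10 in monocytes, a difference of -1.27 ± 0.25 (adjusted p = 0.00682, limma). Gmnn encodes geminin, which binds Cdt1 and stops it from loading more helicase. It moved in the same direction as Cdt1, with log2 values of 0.97 and 0.57 in brain DCs, against 1.48, 2.02 and 2.10 in monocytes (difference -1.09 ± 0.22, limma adjusted p = 0.00718). Both the loader and its inhibitor were therefore lower in brain DCs on every array.

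Of 3 subunits of the origin recognition complex, 1 was called lower. Orc1, its ATPase subunit that comes and goes with the cell cycle, had -0.02 and -0.05 in brain DCs, against 0.05, 0.17 and -0.01 in monocytes, and its difference of -0.11 ± 0.12 was not called (limma adjusted p = 0.544). Orc2, a core subunit, differed by -0.24 ± 0.17 and was not called either (limma adjusted p = 0.305). Orc6, the smallest subunit, was lower, with 0.23 and -0.09 in brain DCs, against 0.59, 0.95 and 0.80 in monocytes (difference -0.71 ± 0.16, limma adjusted p = 0.0139), a call lost without brain DC array 2 (adjusted p = 0.0742). With the probe set of highest mean in place of the average, Orc1 differed by 0.12. Because values are relative to each probe set's baseline, the one of highest mean, here and below, need not have the strongest signal.

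The MCM helicase is a ring of 6 subunits, Mcm2 to Mcm7, and 3 of them were called lower. Mcm4 had log2 values of -0.92 and -0.57 in brain DCs, against 0.55, 1.17 and 0.46 in monocytes, a difference of -1.47 ± 0.23 (2.77-fold lower, limma adjusted p = 0.00259). Mcm2 had -1.24 and -0.51 in brain DCs, against -0.13, 0.81 and 0.39 in monocytes (difference -1.23 ± 0.31, limma adjusted p = 0.0182). Mcm7 had -0.96 and -0.28 in brain DCs, against 0.06, 0.86 and 0.46 in monocytes (difference -1.08 ± 0.28, limma adjusted p = 0.0204). Neither group overlapped the other in these 3 subunits. The calls of Mcm2 and Mcm7 were lost without brain DC array 1, at adjusted p of 0.113 and 0.123, and that of Mcm7 also without monocyte array 2. For the other subunits the spread was larger relative to the difference. Mcm5 had -0.83 and -0.06 in brain DCs, against 0.10, 0.87 and 0.08 in monocytes, and its difference of -0.79 ± 0.30 had a limma adjusted p of 0.0825 although the groups did not overlap. Mcm3 differed by -0.53 ± 0.24 and Mcm6 by -0.27 ± 0.21, and in both the groups overlapped (limma adjusted p = 0.128 and 0.354).

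Helicase activation genes were lower in 5 of 6 cases, with a median difference of -0.73. Cdc7, the catalytic subunit of the kinase that phosphorylates the loaded helicase, had log2 values of -0.92 and -0.79 in brain DCs, against 0.41, 1.14 and 0.61 in monocytes. Its difference of -1.58 ± 0.21 made it 2.98-fold lower (limma adjusted p = 0.00131). Dbf4, the regulatory subunit without which Cdc7 is inactive, had 0.06 and 0.26 in brain DCs, against 0.67, 1.41 and 0.75 in monocytes (difference -0.78 ± 0.23, limma adjusted p = 0.0355). Both parts of the kinase were thus lower, the regulatory one with a call that was lost without brain DC array 1 (adjusted p = 0.154) or array 2 (0.0746).

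Cdc45, which joins the MCM ring to make it an active helicase, had -0.39 and 0.18 in brain DCs, against 0.66, 1.14 and 0.95 in monocytes (difference -1.03 ± 0.21, limma adjusted p = 0.00855). Mcm10, which helps the assembled helicase to open the origin, differed by -0.69 ± 0.15 (limma adjusted p = 0.00906, and 0.0515 without brain DC array 1). The GINS complex, the other helper of the ring, did not move as one. Gins1 had 0.25 and 0.41 in brain DCs, against 0.57, 1.00 and 1.00 in monocytes (difference -0.52 ± 0.17, limma adjusted p = 0.0485), a call that held in the fit without monocyte array 1 and was lost in the fits without any 1 of the other 4 arrays (adjusted p = 0.127 to 0.188 for 3 of them and 0.0835 without brain DC array 2). Gins2 pointed the other way, with 0.44 and 0.75 in brain DCs, against -0.20, 0.49 and -0.43 in monocytes. The groups overlapped on monocyte array 2, and the difference of 0.64 ± 0.26 was not called (limma adjusted p = 0.102), whereas without that array it was 0.91 with an adjusted p of 0.0109. Gins3, taken from the list of other replication factors, was lower, at -1.29 ± 0.19 (limma adjusted p = 0.00191). Gins4, from the same list, differed by 0.41 ± 0.17 and was not called (limma adjusted p = 0.108), although both brain DC arrays lay above all 3 monocyte arrays.

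Among polymerase and primase genes, 3 of 9 were lower, 0 were higher and the median difference was -0.49, and the 3 belong to the polymerases that elongate the strands. Pole, the catalytic subunit of the leading-strand polymerase epsilon, had log2 values of -0.45 and -0.38 in brain DCs, against 0.55, 1.26 and 1.10 in monocytes (difference -1.38 ± 0.21, 2.61-fold lower, limma adjusted p = 0.00222). Its partner Pole2 had -0.57 and -0.06 in brain DCs, against 0.84, 0.98 and 1.00 in monocytes (difference -1.26 ± 0.17, 2.39-fold lower, limma adjusted p = 0.00136). The 2 core subunits of polymerase epsilon thus differed by nearly the same amount. The small histone-fold subunits Pole3 and Pole4, which are not among the listed genes, were higher in brain DCs, at 1.05 ± 0.12 and 0.46 ± 0.13 (limma adjusted p = 0.000624 and 0.0314). The call of Pole4 was lost without any 1 array except brain DC array 2, and its probe set of highest mean differed by -0.07.

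For polymerase delta, which copies the lagging strand, the core subunits were not called. Pold3, a subunit that links the enzyme to the clamp, was lower by -0.65 ± 0.18 (limma adjusted p = 0.0307), a call lost without any 1 array except monocyte array 3. The catalytic Pold1 differed by -0.49 ± 0.24 and Pold2 by 0.28 ± 0.20, and neither was called (limma adjusted p = 0.155 and 0.319). Pold4, the smallest subunit and not among the listed genes, was 4.32-fold higher, with 0.96 and 1.09 in brain DCs, against -1.14, -1.20 and -0.92 in monocytes (difference 2.11 ± 0.14, limma adjusted p = 5.14e-05). Polymerase alpha and primase, which lay down the RNA-DNA primers, had 0 of 4 subunits called. Pola1 differed by -0.19 ± 0.17, Pola2 by -0.57 ± 0.19 with an adjusted p of 0.0526, Prim1 by 0.03 ± 0.18 and Prim2 by -0.20 ± 0.16 (limma).

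The sliding clamp was the 1 gene called higher. Pcna, the ring that tethers polymerases to DNA and also serves DNA repair, had log2 values of 0.60 and 0.28 in brain DCs, against -0.48, -0.20 and -0.75 in monocytes, on a single probe set. The groups did not overlap, and the difference was 0.91 ± 0.19, or 1.89-fold higher (limma adjusted p = 0.00866). Without brain DC array 1 it was 0.76 and no longer called (adjusted p = 0.0562). The clamp loader, replication factor C, opens the ring and puts it on DNA, and 3 of its 5 subunits were lower. Rfc5 had -0.21 and -0.36 in brain DCs, against 0.63, 1.38 and 0.62 in monocytes (difference -1.16 ± 0.24, limma adjusted p = 0.00836). Rfc1, the large subunit, differed by -0.77 ± 0.16 and Rfc2 by -0.50 ± 0.14 (limma adjusted p = 0.00939 and 0.0298). Both calls were lost without brain DC array 1 (adjusted p = 0.0562 for Rfc1 and 0.118 for Rfc2), and that of Rfc2 was kept only without monocyte array 3 when 1 array was left out. Rfc3 differed by 0.03 ± 0.32 and Rfc4 by 0.00 ± 0.23, and in both the groups overlapped. The value of Rfc4 averages 2 probe sets that differed by -0.51 and 0.52, neither of them called (limma adjusted p = 0.151 and 0.171). On the second, both brain DC arrays lay above all 3 monocyte arrays. Clamp and clamp loader subunits therefore took different directions within these samples.

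Replication protein A coats the single strand that the helicase exposes. Its 3 subunits were not called: Rpa1 differed by -0.32 ± 0.21, Rpa2 by -0.35 ± 0.23 and Rpa3 by 0.32 ± 0.25 (limma adjusted p = 0.275, 0.279 and 0.355). Fen1, the nuclease that trims the flaps of Okazaki fragments, was lower, with -0.54 and -0.42 in brain DCs, against 0.27, 0.73 and 0.23 in monocytes (difference -0.89 ± 0.18, limma adjusted p = 0.00743). Lig1, the ligase that seals the fragments, had -0.60 and 0.30 in brain DCs, against 0.45, 1.39 and 0.59 in monocytes. Its groups did not overlap, and the difference of -0.96 ± 0.34 was larger than that of Fen1 but had a limma adjusted p of 0.0659, with the brain DC arrays 0.90 apart and the monocyte arrays 0.95.

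Deoxynucleotide synthesis genes were lower in 3 of 5 cases, with a median difference of -0.78. Rrm2, the small subunit of ribonucleotide reductase, which makes deoxynucleotides and limits the enzyme outside S phase, had log2 values of -1.93 and -1.09 in brain DCs, against 0.23, 1.58 and 0.77 in monocytes. The difference of -2.37 ± 0.39 made it 5.16-fold lower (limma adjusted p = 0.00321). Rrm1, the large subunit, had -0.76 and -0.13 in brain DCs, against 0.44, 1.15 and 0.55 in monocytes (difference -1.16 ± 0.26, limma adjusted p = 0.0123), and without brain DC array 1 its call was lost (adjusted p = 0.0777). Both subunits were lower on every array, and whether their differences were unequal was not tested.

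Tyms, thymidylate synthase, had -0.38 and -0.28 in brain DCs, against 0.24, 0.76 and 0.38 in monocytes (difference -0.78 ± 0.17, limma adjusted p = 0.0115). This call was lost without brain DC array 1 (adjusted p = 0.0586). The salvage kinase for thymidine, Tk1, had -0.32 and -0.01 in brain DCs, against -0.59, 0.49 and -0.26 in monocytes. Its groups overlapped and its difference was -0.05 ± 0.30 (limma adjusted p = 0.919). Dut, which removes dUTP and so keeps uracil out of DNA, differed by -0.08 ± 0.19 (limma adjusted p = 0.775).

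G1/S regulators held the largest difference of all 48 genes. Ccne2, a cyclin E that activates Cdk2 at the entry into S phase, had log2 values of -0.46 and -2.05 in brain DCs, against 2.77, 3.07 and 2.85 in monocytes, on a single probe set. The difference was -4.15 ± 0.40, or 17.7-fold lower (limma adjusted p = 0.000291). The brain DC arrays lay 1.60 apart, and the difference was -4.95 without array 1 and -3.35 without array 2, so that its size is known less well than its direction. Ccne1, the other cyclin E, had 0.02 and 0.17 in brain DCs, against 1.21, 2.01 and 1.18 in monocytes (difference -1.37 ± 0.26, 2.59-fold lower, limma adjusted p = 0.00529). E2f1, an activator of S phase genes, had 0.07 and -0.08 in brain DCs, against -0.16, 0.00 and -0.18 in monocytes, and its difference of 0.11 ± 0.13 was not called (limma adjusted p = 0.557). Both E cyclins were thus lower in brain DCs, while E2f1 passed the test in neither direction.

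Of the chromatin genes, Uhrf1 was called. It brings the maintenance DNA methyltransferase to newly copied DNA and had -0.73 and -0.83 in brain DCs, against -0.02, 1.09 and 0.00 in monocytes (difference -1.13 ± 0.32, 2.19-fold lower, limma adjusted p = 0.0316). Monocyte array 2 stood apart from the other two, and the call was lost without either brain DC array (adjusted p = 0.0988 and 0.116). Chaf1b, a subunit of the chromatin assembly factor, differed by -0.24 ± 0.14 and was not called (limma adjusted p = 0.232).

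Probe sets of a gene were averaged before the fit, and they did not always move together. Of the 105 probe sets, 39 were called lower and 1 higher, against 16.8% and 13.5% of all probe sets, and the median difference was -0.61. In 14 of the 37 genes with several probe sets the differences had unlike signs, though 0 genes had probe sets called in opposite directions. Neither count was made over all genes. Mcm10 rested on 1 of 3 probe sets. That probe set had log2 values of -0.57 and -0.65 in brain DCs, against 1.46, 2.13 and 1.69 in monocytes, a difference of -2.37 (limma adjusted p = 0.000227), while the other two differed by -0.17 and 0.47. Tyms likewise had 1 called probe set of 4, at -2.40, with the others between -1.07 and 0.21. For Cdc7 the 2 probe sets differed by -3.05 and -0.11, so the average of -1.58 lies between a large difference and almost none. Gins1 was called on the average with neither of its 2 probe sets called (limma adjusted p = 0.123 and 0.183). Among monocytes, array 2 was the highest on 1 of them, at 1.46, and the lowest on the other, at 0.54. Chaf1b, not called on the average, had 1 probe set called lower at -0.88 and 1 at 0.41. Mcm5, Pola2 and Rpa1, not called on the average either, each had 1 probe set called lower, at -1.06, -0.81 and -0.73. The adjusted p of these 3 probe sets by limma was 0.0129, 0.0356 and 0.0365. Rrm2, by contrast, had differences of -2.78 to -2.0 on its 3 probe sets, all called. Which transcripts the discordant probe sets detect was not tested.

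Among the 3 monocyte arrays, replication genes were highest on array 2. It was above array 1 in 48 of 48 genes, against 8424 of all 18193 genes. It was the highest of the 3 in 39, against 33.8% of all genes, with array 3 highest in 9, against 31.1% of all genes. Array 1 was the lowest in 33, against 27.7% of all genes, and array 3 in 15, against 34.6% of all genes. Array 1 was the highest in 0 and array 2 the lowest in 0, against 35% and 37.8% of all genes. The median of array 2 minus array 1 was 0.54 on the log2 scale, that of array 2 minus array 3 was 0.38 and that of array 3 minus array 1 was 0.15. At a difference of at least 0.5, 27 genes were higher on array 2 than on array 1, 19 higher on array 2 than on array 3, and 7 higher on array 3 than on array 1, with 0 the other way in each pair. The same differences were seen in 4.73%, 5.61% and 2.95% of all genes, and their reverse in 2.53%, 3.24% and 2.68%. These are values of single arrays, with no test.

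**Figure D3:**
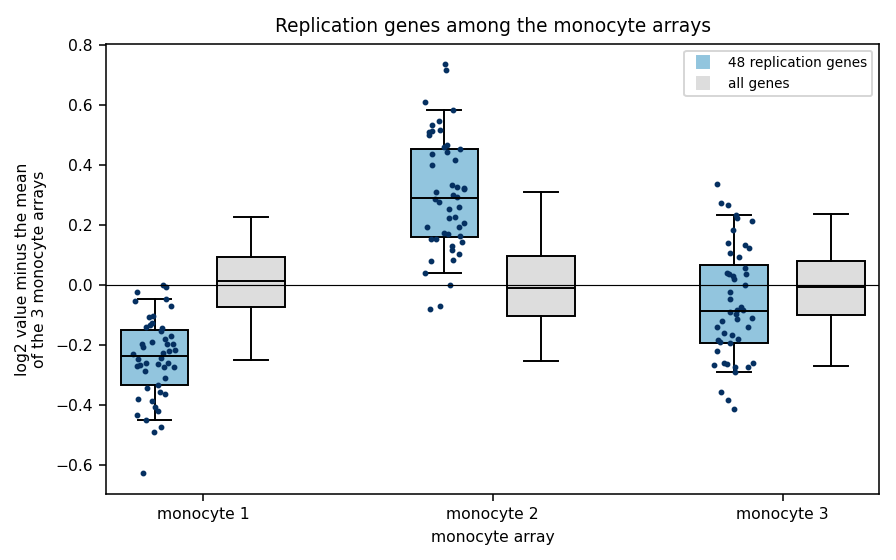
Each point is the log2 value of 1 of the 48 replication genes on a monocyte array minus its mean over the 3 monocyte arrays, with boxes from the lower to the upper quartile, a line at the median and whiskers at the 5th and 95th percentiles; grey boxes give all genes. The medians of the replication genes are -0.24, 0.29 and -0.09 on arrays 1, 2 and 3, while those of all genes lie between -0.01 and 0.01.

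The widest range over the monocyte arrays was that of Rrm2, at 1.34, followed by Uhrf1 at 1.12, Tk1 at 1.08, Lig1 at 0.95 and Mcm2 at 0.94. The narrowest were Pole2 at 0.16, Orc1 at 0.18 and E2f1 at 0.19. Pole2 was thus 2.39-fold lower in brain DCs while its monocyte arrays nearly coincided, whereas Tk1 varied more among monocytes than between the groups. The median range was 0.57, against 0.26 over all genes. In 20 of the 48 genes the range among monocytes exceeded the size of the difference between the groups, a count that was not made over all genes. Brain DC arrays also differed, with array 2 above array 1 in 37 of the 48 genes, against 52.6% of all genes, by a median of 0.19. By at least 0.5, array 2 was higher in 13 and array 1 in 2, against 7.46% and 5% of all genes.

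Mitotic genes and progenitor markers had their lowest median on monocyte array 1 and their highest on array 2, as the replication genes did. The pattern was not confined to them. In the related lists described below, array 2 was the highest in 78 of 115 genes and array 1 the lowest in 79, against 33.8% and 27.7% of all genes. For general nucleotide synthesis these counts were 17 and 17 of 20, and for deoxynucleotide salvage and turnover 3 and 6 of 10. Medians of the 48 replication genes were -0.23 and 0.00 on the brain DC arrays, against 0.24, 0.85 and 0.46 on monocyte arrays 1, 2 and 3. Over 17 mitotic genes the medians were -0.27 and -0.06, against 1.10, 2.08 and 1.44. Array 2 was above array 1 in 17 of 17, against 8424 of all 18193 genes. Mki67, which encodes the proliferation antigen Ki-67, had -0.05 and 0.53 in brain DCs, against 1.85, 2.71 and 2.27 in monocytes.

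The 10 measured granulocyte-monocyte progenitor markers had medians of -0.33 and -0.29 on the brain DC arrays, against 0.53, 1.81 and 1.56 on the monocyte arrays, with array 2 highest in 9 and array 1 lowest in 9. Mpo, the myeloperoxidase of granule-forming progenitors, had -0.32 and -0.47 in brain DCs, against 1.81, 5.72 and 5.22 in monocytes, and Prtn3, another primary granule protein, had 0.89 and 0.65 in brain DCs, against 4.54, 5.83 and 5.52 in monocytes. Cd34 and Kit, markers of earlier progenitors, were instead higher in brain DCs, by 2.91 ± 0.43 and 2.06 ± 0.19 (limma adjusted p = 0.00179 and 0.000229). The 8 measured neutrophil markers had medians of 1.51 and 1.42 on the brain DC arrays, against 1.47, 2.43 and 2.55 on the monocyte arrays. Among them Ltf, Camp and Ngp, named after their values were seen, were lowest on monocyte array 1, at -0.93, -0.45 and -1.18. They had 0.82, 1.23 and 1.61 on array 2, and 0.49, 1.89 and 1.56 on array 3. Of the 8 neutrophil markers, array 1 was lowest in 4, array 2 in 2 and array 3 in 2. The shares over all genes were 27.7%, 37.8% and 34.6%. Mmp8 and Cd177, the 2 called lower in brain DCs, were lowest on array 2. Mmp8 had 4.87, 4.19 and 4.90 on the 3 arrays, and Cd177 had 6.86, 6.59 and 6.96. Medians of the monocyte markers were 3.54, 3.25 and 3.68 on the monocyte arrays, so array 2 was not the highest there. The part of progenitors or neutrophil precursors in the replication gene values was not tested. Monocyte array 1 alone was also used as the comparison, a choice made after the data were seen. It had the lowest progenitor and mitotic medians of the 3 and was the lowest in 33 of the 48 replication genes. A smaller difference than against all 3 arrays therefore follows in part from that choice, and the fit does not test the part of progenitors. The progenitor median of array 1, 0.53, lay above those of both brain DC arrays. In the fit against array 1, the median difference of the replication genes was -0.50, against 0.06 over all genes. The brain DC mean lay below array 1 in 36 of 48, against 43.8% of all genes. In that fit 8 of the 48 were called lower, against 8.27% of all genes, with the single monocyte array assumed to vary like the brain DC arrays, the only replicates left.

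**Figure D4:**
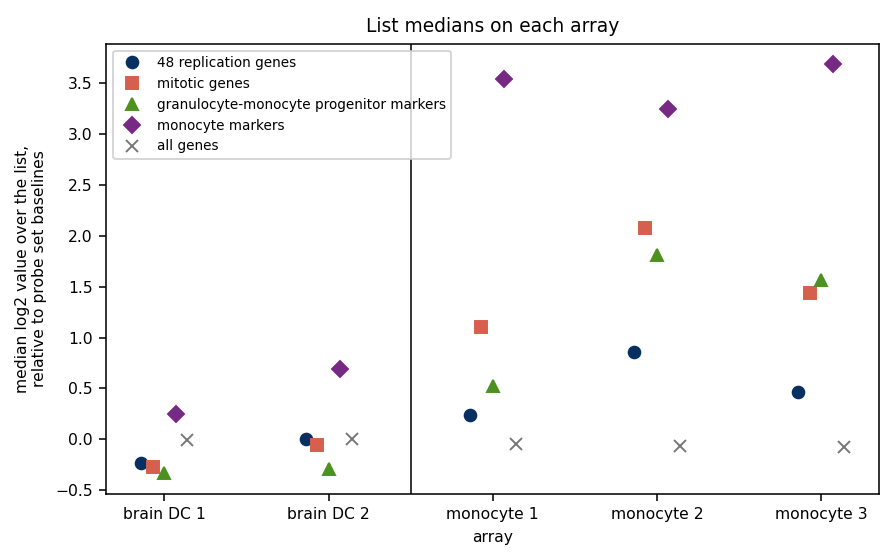
Points give the median log2 value, relative to probe set baselines, of 4 gene lists and of all genes on the 2 brain DC arrays (left of the line) and the 3 monocyte arrays (right). Replication genes, mitotic genes and granulocyte-monocyte progenitor markers are each lowest on array 1 and highest on array 2 among monocytes, at 0.24 and 0.85 for the replication genes, while monocyte markers are lowest on array 2 at 3.25.

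Genes that surround the listed set were examined in 7 lists of 118 genes, mitotic genes included, of which 115 were measured, 57 lower, 15 higher and 43 not called in brain DCs. The shares over all genes, 16.9% called lower and 16.9% higher, apply to each count below, and a share of a list near them is not a result about that list. Other replication factors had a median close to that of the listed genes, with 16 of 31 lower, 4 higher and a median difference of -0.72. Clspn, which encodes the checkpoint mediator claspin of the fork, was lower by -2.17 ± 0.29, and Wdhd1, which ties polymerase alpha to the helicase, by -2.02 ± 0.25 (limma adjusted p = 0.00126 and 0.000868). Dna2, a nuclease of long flaps, was lower by -1.27 ± 0.18 (limma adjusted p = 0.00162), but differed by 0.03 on its probe set of highest mean. The 4 higher ones were Pold4, Pole3, Pole4 and Rnaseh2a, the catalytic subunit of ribonuclease H2, at 0.76 ± 0.22 (limma adjusted p = 0.0302). The call of Rnaseh2a was lost without brain DC array 2 (adjusted p = 0.16) or monocyte array 1 or 3.

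**Figure D5:**
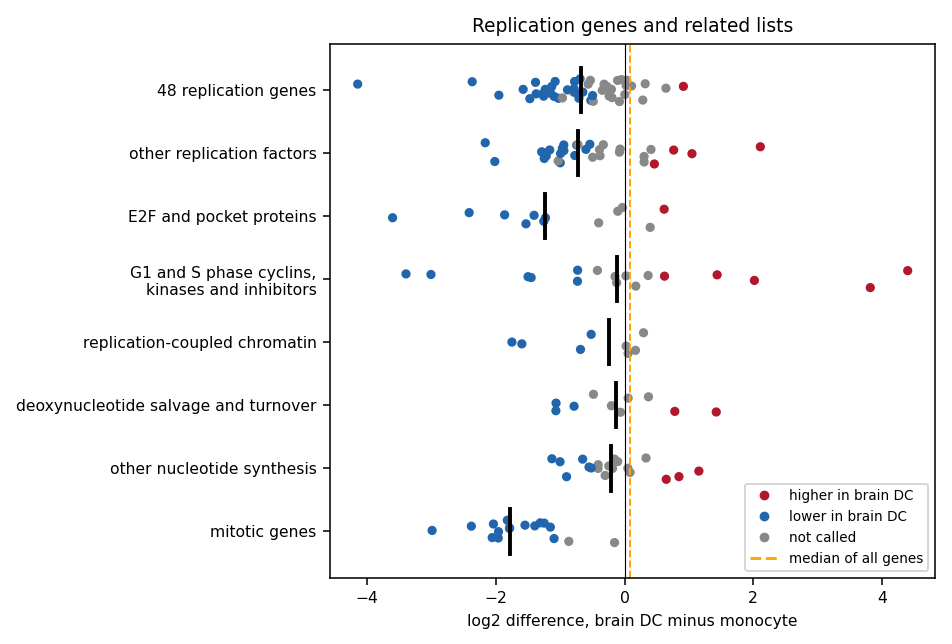
Each point is the log2 difference, brain DC minus monocyte, of 1 gene of the listed replication genes or of a related list, coloured by whether it was called higher, lower or not in brain DCs, with a black bar at the list's median. Medians run from -1.79 for mitotic genes and -1.24 for E2F and pocket proteins to -0.12 for G1 and S phase cyclins, kinases and inhibitors, which hold both the largest increases and genes that are more than 8-fold lower.

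E2F and pocket proteins were lower in 7 of 12 cases and higher in 1, with a median of -1.24. E2f7, a repressor of the E2F family, had log2 values of -0.61 and -0.58 in brain DCs, against 2.39, 3.66 and 2.99 in monocytes, and was 12.2-fold lower (difference -3.61 ± 0.32, limma adjusted p = 0.000203). Its close relative E2f8 was lower by -1.86 ± 0.32. E2f2, an activator, had 0.02 and 0.43 in brain DCs, against 2.41, 2.88 and 2.62 in monocytes (difference -2.42 ± 0.19, limma adjusted p = 0.000108), unlike E2f1 above. Rbl2, the pocket protein p130, was lower by -1.53 ± 0.21. E2f5, which works with the pocket proteins, was higher by 0.62 ± 0.18 (limma adjusted p = 0.0361), a call lost without any 1 array except brain DC array 2 (adjusted p = 0.0676 to 0.18), and E2f4, of the same kind, differed by 0.40 ± 0.13 and was not called (limma adjusted p = 0.0535).

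Cyclins, kinases and inhibitors of G1 and S phase split most widely, with 6 of 17 lower and 5 higher. Of the D cyclins, which respond to growth factors, Ccnd1 and Ccnd2 were higher and Ccnd3 was not called, at -0.15 ± 0.14 (limma adjusted p = 0.451). Ccnd1 had 1.14 and 1.43 in brain DCs, against -3.07, -2.98 and -3.29 in monocytes (difference 4.40 ± 0.15, 21.1-fold higher, limma adjusted p = 3.1e-06), and Ccnd2 had 0.75 and 0.99 in brain DCs, against -3.41, -2.61 and -2.83 in monocytes (difference 3.82 ± 0.23, limma adjusted p = 3.6e-05). Ccnd1 and Ccnd2 thus differed in the opposite direction to Ccne1 and Ccne2. The inhibitors Cdkn1a, Cdkn2d and Cdkn1b, which encode p21, p19 and p27, were higher by 2.02 ± 0.17, 1.44 ± 0.20 and 0.62 ± 0.17, while the inhibitor Cdkn2c was lower by -1.45 ± 0.28. Skp2, which marks p27 for degradation, was lower by -3.01 ± 0.16 (8.05-fold, limma adjusted p = 2.17e-05), and Fbxo5, an inhibitor of the anaphase-promoting complex, by -3.40 ± 0.27 (limma adjusted p = 0.000125). Ccna2, the S phase cyclin A, was lower by -1.5 ± 0.30 and its kinase Cdk2 by -0.73 ± 0.17 (limma adjusted p = 0.00718 and 0.0145), both calls being lost without brain DC array 1 (adjusted p = 0.0517 and 0.0769). The call of Cdkn1b was lost without brain DC array 2 (adjusted p = 0.146) or monocyte array 1 or 2, and its probe set of highest mean differed by -0.04. That of Cdk2 differed by -0.11.

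The genes of general nucleotide synthesis had a smaller median difference, -0.22, with 6 of 20 lower and 3 higher, against 16.9% of all genes in each direction. Ctps2, a CTP synthase, and Adss, of adenylate synthesis, were lower by -1.13 ± 0.19 and -1.0 ± 0.16. Pfas and Gart, of purine synthesis, were lower by -0.90 ± 0.21 and -0.65 ± 0.18, whereas Prps1, Adsl and Paics of the same pathway were higher by 1.16 ± 0.19, 0.85 ± 0.20 and 0.65 ± 0.13. The calls of Pfas and Gart were lost without brain DC array 1 (adjusted p = 0.0763 and 0.152), that of Gart also without monocyte array 2, and that of Adsl without brain DC array 2 (0.0723). In deoxynucleotide salvage and turnover, 3 of 10 were lower and 2 higher, against 16.9% of all genes in each direction. Tk2, the mitochondrial thymidine kinase, was lower by -1.07 ± 0.20, and Samhd1, the enzyme that degrades deoxynucleotides in resting myeloid cells, by -1.06 ± 0.18 (limma adjusted p = 0.00324). Samhd1 had 1.47, 1.17 and 1.53 on the 3 monocyte arrays, against 0.12 and 0.53 in brain DCs. Among monocytes it was lowest on array 2, as were 37.8% of all genes. The same held for 7 of 31 other replication factors and 0 of the 48 replication genes. Cmpk1, a nucleotide kinase, was lower by -0.78 ± 0.15, and Nt5c, a nucleotidase, was higher by 1.43 ± 0.13, as was Dguok, the mitochondrial deoxyguanosine kinase, by 0.78 ± 0.13.

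Replication-coupled chromatin genes were lower in 4 of 8 cases and higher in 0. Dnmt1, the maintenance methyltransferase that Uhrf1 guides, had log2 values of -0.44 and 0.62 in brain DCs, against 1.5, 2.28 and 1.73 in monocytes (difference -1.75 ± 0.34, limma adjusted p = 0.00607). Asf1b, a histone chaperone, was lower by -1.60 ± 0.23, Hells, a chromatin remodeller, by -0.68 ± 0.21, and Slbp, which binds histone messages, by -0.52 ± 0.14 (limma adjusted p = 0.00154, 0.0424 and 0.0244). The calls of Hells and Slbp were lost without brain DC array 2 (adjusted p = 0.212 and 0.103) or monocyte array 2 or 3. Mitotic genes were lower in 15 of 17 cases and higher in 0, with a median of -1.79, further from 0 than the -0.67 of the replication genes. Kif20a and Kif11, kinesins of the spindle and midzone, were lower by -2.99 ± 0.46 and -2.38 ± 0.32, Cenpe, a kinetochore motor, by -2.06 ± 0.31, and Mki67 by -2.04 ± 0.27 (limma adjusted p = 0.00231, 0.00125, 0.00193 and 0.00119).

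Without 1 array at a time, 14 to 25 replication genes were called lower, the fewest without brain DC array 1, and 13 were called lower in every such fit and under every other setting tried except monocyte array 1 alone: Ccne1, Ccne2, Cdc45, Cdc6, Cdc7, Cdt1, Fen1, Gmnn, Mcm4, Pole, Pole2, Rfc5 and Rrm2. Among the 13, Ccne1, Cdc45, Cdc7, Cdt1 and Fen1 each had 1 probe set that was not called. Their adjusted p by limma was 0.0538, 0.248, 0.659, 0.569 and 0.0742. Choosing the probe set of highest mean or of widest variance took a called one in each of these genes. Those 2 settings therefore do not examine the uncalled probe sets. Because values are relative, neither detection above background nor absolute abundance of any of these transcripts can be read from them.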

How the data were processed

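RNA of 5 sorted mouse cell samples was hybridised to Affymetrix arrays, 1 array per sample, after cRNA labelling with biotin, per the labels' protocols. The authors made the deposited values, read here as log2 values around a baseline for each probe set, by RMA, per the submitters' processing notes. RMA corrects background, normalises by quantiles and summarises the probes of a probe set. Neither the RMA version, the baseline, the log base nor the arrays normalised with these 5 are given in the sources used here. RMA equalises array distributions, so a shift shared by most genes would not be seen.

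Symbols came from the platform annotation: 34945 of 45101 probe sets had 1 symbol, 932 had several, 9160 had none and 64 were controls. Probe sets of a gene were averaged, and brain DC minus monocyte was tested with limma 3.58.1 in R 4.3.3 (lmFit, eBayes) over 18193 genes with Benjamini-Hochberg adjustment and a threshold of 0.05. The fit had 3 residual and 4.43 prior degrees of freedom, with a prior SD of 0.165. Errors are the SE of that fit. A second fit used single probe sets. Single arrays were compared without a test, counting differences of at least 0.5. The number of arrays limits the precision.

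Every measured member is described, with up to 4 called genes in each direction from each related list and a few fixed ones. The members and lists were chosen with earlier results of these data known. Promoters came from RefSeq (GRCm38.p6). The alternatives were other probe set rules, quantile normalization, centring, robust eBayes, array weights, a range filter, a replicate block, leaving out each array, and monocyte array 1 alone, the last chosen after seeing the data. The script was tested on simulated data.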

Additional observations from a re-analysis of the deposited data

How the results depend on the processing

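With all 5 arrays kept, 22 to 28 of the 48 replication genes were called lower under the other settings, against 25 as reported, and the median difference lay between -0.90 and -0.62. Over all genes, 2891 to 3660 were called lower under these settings, against 3083 as reported. Without 1 array at a time the count of replication genes called lower was 14 to 25, the median difference -0.75 to -0.52 and the count called higher 0 to 2. Over all genes, 2371 to 2806 were called lower in those fits and 2236 to 2447 higher. Both Pcna and Gins2, 2 genes, were called higher after quantile normalization and with a filter on the range. Against monocyte array 1 alone, 8 genes were called lower and the median difference was -0.50. Over all genes 1505 were then called lower and 1256 higher, and over the related lists 29 lower and 8 higher. Related genes called lower numbered 43 to 58 and higher 11 to 13 without 1 array at a time. With the replicate number as a block, 27 replication genes were lower, 24 of them among the 25, and 1 was higher, at a median of -0.67. The deviations of same-numbered arrays correlated by 0.04 and 0.09, so the numbers were not taken to pair the samples. At a difference of at least 1, 3 genes were higher on monocyte array 2 than on array 1, 1 than on array 3, and 0 were higher on array 3 than on array 1.

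The sign turned in genes not called as reported, and in 3 that were called. With the probe set of highest mean, the difference was 0.12 for Orc1, -0.51 for Rfc4, 0.038 for Dut, -0.34 for E2f1, 0.028 for Dna2, -0.071 for Pole4 and -0.044 for Cdkn1b, the last 3 being called as reported. With the probe set of widest variance it was 0.12 for Orc1, -0.061 for Prim1 and 0.038 for Dut. With arrays centred on their median it was -0.031 for Prim1, -0.039 for Rfc3 and -0.061 for Rfc4, and with array weights it was 0.053 for Tk1. With the replicate block it was -0.015 for Prim1 and -0.18 for Rfc3. Against monocyte array 1 alone it was 0.032 for Pola1, 0.0097 for Prim2, 0.42 for Tk1 and 0.064 for Dut. Without 1 array at a time the differences ran from -0.57 to 0.022 for Mcm6, -0.0805 to 0.20 for Prim1, -0.39 to 0.45 for Rfc3, -0.21 to 0.19 for Rfc4, -0.0096 to 0.65 for Rpa3, -0.28 to 0.26 for Tk1 and -0.18 to 0.087 for Dut. The cause of these changes was not tested. With no detection calls in relative values, genes near background could not be set aside.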
